A study of Drosophila melanogaster with 3 samples.

Results

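Chromosome 4 is the smallest chromosome of Drosophila melanogaster, and the peaks described here are all those of an open chromatin map that lie on it, 270 of 34718. They were chosen by their chromosome name alone, with no measured value involved. The map was made by ATAC-seq, in which a transposase cuts accessible DNA and inserts sequencing adapters. Its source was the epidermis of the pupal abdomen of wild-type animals at 38 to 45 h after puparium formation, freed of internal organs and still attached to the cuticle. There were 3 replicates of 50 pupae each, deposited as 1 merged peak list, so values below carry no replicate error. No difference between chromosome 4 and the other 5 arms could be tested against replicates, and all comparisons are descriptions. The preparation is a tissue and not a sorted cell type. A gene-end peak, as defined below, was found at 7 of 8 genes chosen as epidermal markers, but also at 5 of 5 muscle, 4 of 4 haemocyte, 3 of 5 neuronal and 2 of 4 fat body markers. Since 65.6% of all coding genes had one, these small counts do not tell the cell types apart. The share of each cell type in the peaks was not tested.

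Chromosome 4 is known as an arm of mixed chromatin. Much of its sequence is packed with heterochromatin proteins such as HP1 and with methylation of histone H3 at lysine 9, and repeats are scattered between and within its genes. Its genes are nevertheless transcribed, and a dedicated protein, POF, binds along the arm. Heterochromatin is in general less accessible to transposase than euchromatin, whereas promoters and enhancers in use are more accessible.

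Peaks were sparser here than on any other arm, while gene ends were well covered. Between its first and last annotated gene the arm held 265 of the 270 peaks, or 209 per Mb, against 234 on X, 258 to 282 on the remaining arms and 262 over the other 5 arms together. Those 265 peaks covered 8.56% of the span, compared with 10.2% on X and 12.2% on 2L, the ends of the range elsewhere. Coding genes were also sparser, at 62.9 per Mb against 93.3 to 114 per Mb. Per coding gene, with all 270 peaks counted, the order turned around, with 3.38 peaks on chromosome 4 and 2.26 to 2.78 on the other arms. The coding genes of the arm were long, with a median span of 10090 bp against 1986 to 2520 bp elsewhere.

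Gene ends accounted for more of the peaks than their sequence would give at even spacing. A gene-end peak is one whose summit, its highest point, lies within 500 bp of either annotated end of any gene, since the annotation used gives no strand and thus no transcription start. Of the 270 summits, 96 (35.6%, exact 95% binomial interval 29.8 to 41.6%, counting error only) were at gene ends, 138 (51.1%) inside genes and 36 (13.3%) between genes. The gene-end share was 31.2% over the other arms and ran from 29.7% on X to 34.9% on 2R. The binomial interval of chromosome 4 includes the 31.2%, and the difference of 4.32 percentage points became 1.39 with gene ends drawn at 250 bp and 7.71 at 1000 bp. Sequence within 500 bp of a gene end made up 14.6% of the span of chromosome 4, less than the 16.2 to 20.1% elsewhere. Within the annotated span the share of summits was 2.42 times the share of sequence on chromosome 4, and 1.51 to 1.85 times on the other arms. Counted in the same way, gene ends held 505 summits per Mb of their sequence on chromosome 4 and 426 to 478 elsewhere, whereas all other sequence held 158 against 196 to 246. Within the 96, the median distance to the nearest gene end was 118.5 bp, and 44 summits lay within 100 bp of one.

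Most coding genes of the arm had an accessible end. A gene-end summit was found at 63 of 80 coding genes (78.8%, exact interval 68.2 to 87.1%), against 65.6% of all coding genes of the 6 arms and 62.4 to 67.3% on single other arms. Counting also summits in the gene body, 75 of 80 genes (93.8%) had a peak, against 71.5% over all arms. The size of the difference in gene-end summits depended on whether gene lengths were weighted. The share of genes with any peak was not weighted by length. Genes of 5 kb or longer made up 77.5% of the coding genes on chromosome 4 and 24.7% elsewhere. On the other arms 52.6% of genes under 2 kb had a gene-end summit, and 80.6% of those of 5 to 10 kb. Weighting the other arms to the gene lengths of chromosome 4 gave 77.6%, which leaves a difference of 1.11 percentage points. In the single length classes chromosome 4 was higher under 2 kb (3 of 4, against 52.6%) and at 2 to 5 kb (13 of 14, against 74.5%). It was lower at 5 to 10 kb (17 of 22, against 80.6%) and at 20 kb or more (8 of 13, against 77.1%). Genes of 10 to 20 kb were near the other arms (22 of 27, or 81.5%, against 80.8%). A summit at both ends was seen for 13 genes (16.2%), within the range of the other arms (13.5 to 16.6%).

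Peak height gave opposite orders depending on the measure. The deposited height is a fold enrichment, the number of overlapping reads at the summit (the pileup) plus 1, divided by the peak caller's local background plus 1. Its median was 2.22 on chromosome 4 (interquartile range 1.82 to 2.75), above the medians of 1.98 on 3R to 2.13 on X. A fold enrichment of 3 or more was reached by 44 of the 270 peaks (16.3%), compared with 6.21% of all peaks and 8.92% on X, the highest of the other arms. No peak reached the maxima of the other arms, with 3.92 as the highest value here and 4.19 to 4.45 elsewhere. Those maxima are over 5502 to 8291 peaks per arm, and a maximum tends to rise with the number of peaks. The pileup, recovered from the deposited values, was lower on chromosome 4, with a median of 133.5 reads against 145 to 151. The local background was lower too. It stood at its floor of 57.2 reads at 202 peaks (74.8%), while 22.2 to 40.2% of the peaks on other arms had the floor value. In single stretches of those arms, described below, the share reached 100%, but these stretches held only 1 to 28 peaks each. For a single summit with the median pileup of chromosome 4, the exact 95% Poisson interval is 112 to 158 reads. It covers the counting error of 1 summit and is not an error of the median over peaks.

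Among peaks whose background was at the floor the pileup was higher on chromosome 4, with a median of 129 reads against 114 to 124 on the other arms. In that set the gene-end peaks of chromosome 4 had a median of 143.5 reads, inside the range of 124 to 145 elsewhere, and the distal peaks had 117, at the top of the range of 110 to 117. A fold of 3 or more was reached by 16.3% of the floor peaks on chromosome 4 and by 8.86 to 12.1% on the other arms. The median fold enrichment on chromosome 4 was 1.10 times that of the other arms together, both over all peaks and over floor peaks, where the denominators are equal.

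**Figure D1:**
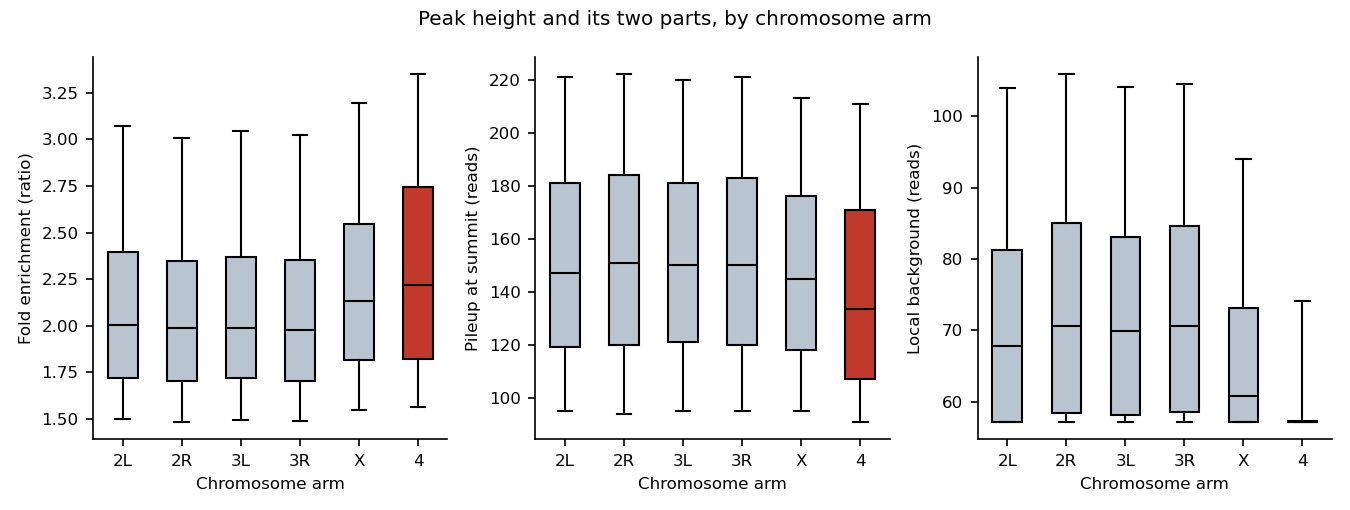
Fold enrichment, pileup at the summit and local background of the peaks on each arm, with boxes from the lower to the upper quartile, a line at the median and whiskers from the 5th to the 95th percentile of peaks. Chromosome 4 (red) has the highest median fold enrichment, the lowest median pileup (133.5 reads) and a background that lies at its floor of 57.2 reads for most peaks.

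Gene-end peaks were the higher class on chromosome 4 as on every arm. Their median fold enrichment was 2.55, compared with 2.28 for intergenic and 1.98 for interior peaks. The matching medians over the other arms were 2.24, 1.97 and 1.91. In reads, the chromosome 4 medians were 150.5 at gene ends, 132 between genes and 123.5 inside genes. Of the 44 peaks with a fold of 3 or more, 27 were at gene ends (28.1% of that class) and 17 were distal (9.77%).

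The highest peaks lay at genes of several kinds, and 3 of the 4 highest belonged to Pax genes. The top peak, chr4:866576-867260 (dm6 coordinates, counted from 1, here and below), had a fold enrichment of 3.92 and 227 reads, 60 bp from an end of Gyf, which encodes a GYF-domain protein. Next came a peak inside ey, the Pax6 gene named for eye development, at chr4:703819-704831 (3.88, 225 reads, 1013 bp wide). The other Pax6 gene, toy, and sv, the Pax2 gene needed for bristle shafts, each had a gene-end peak of 3.85 and 223 reads. They lay at chr4:989348-989893, 135 bp from the end of toy, and at chr4:1088324-1088961, 146 bp from that of sv. The fifth peak (chr4:625194-626614, 3.73) covered an end of mav, which encodes a TGF-beta family ligand, and the microRNA gene mir-954 beside it. An intergenic peak at chr4:1317875-1319406 was sixth with 3.69 and lay 47166 bp beyond Cadps, the last annotated gene.

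The list of the 10 highest was completed by the end of CG31998 (3.61), the interior of anne (3.55), the end of apolpp (3.52) and the end of Hcf (3.42). The gene apolpp encodes the apolipophorin that carries lipids between tissues, and that peak lies inside Zyx, which overlaps it. Hcf encodes a chromatin-associated cofactor. In all, 7 of these 10 peaks were at gene ends and 9 had the floor background. At the other extreme, the 5 lowest peaks had folds of 1.44 to 1.51, were 155 to 303 bp wide and lay in gw, fd102C, unc-13, lgs and Cadps, while a peak inside CG33978 tied with the fifth.

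**Figure D2:**
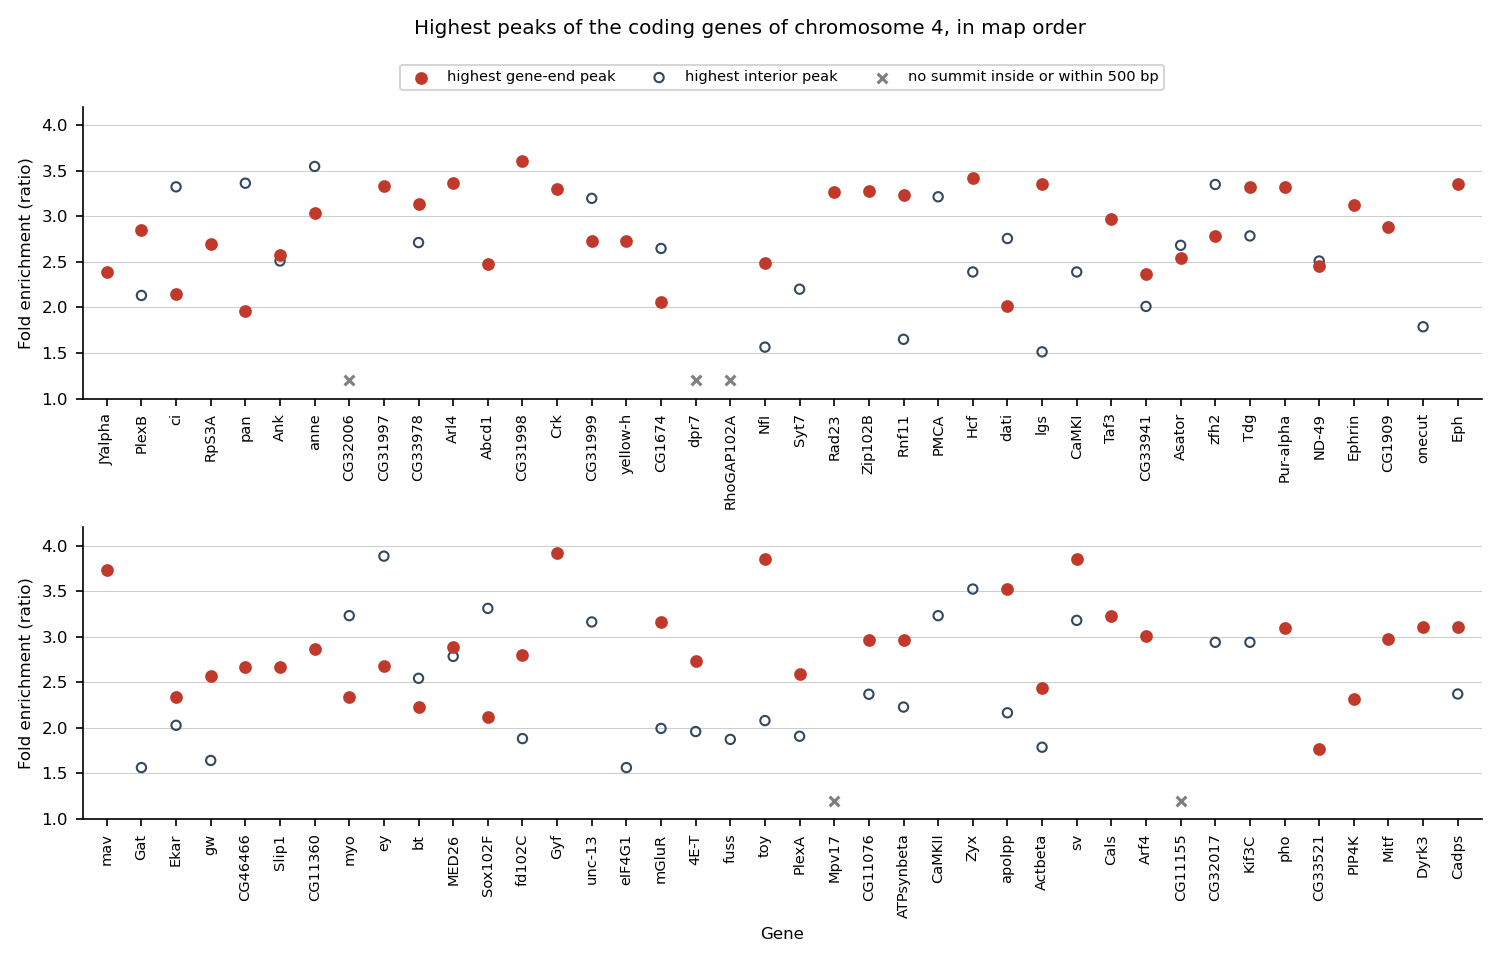
Fold enrichment for each of the 80 coding genes of chromosome 4 in map order, with the highest gene-end peak in red. Open circles mark the highest peak whose summit lies inside the gene, more than 500 bp from the gene's own ends. A cross marks genes that have neither. Overlapping or neighbouring genes can share a peak, as Zyx and apolpp do at 3.52, and 5 genes carry a cross.

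Of the lists examined, that of transcription factor genes held the most summits in total. Its median of 3 per gene was below the 4 in a list of 3 tissue markers described below. The lists were written from general knowledge of the arm with earlier results of these data known, and no test was run on them. Of 15 genes for transcription factors and their cofactors, 13 had a gene-end summit (86.7%, against 78.8% of the coding genes of the arm), and the list held 77 summits. Its best gene-end folds ran from 1.96 to 3.85. Counted within the genes and 500 bp around them, the density was 2.47 summits per 10 kb, compared with 2.10 over all coding genes of the arm. It rests on zfh2 and Sox102F, which held 30 of the 77 summits, and without them the density was 1.99. The exceptions were onecut and fuss, with 2 and 3 summits inside the gene and folds of at most 1.87.

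The homeodomain zinc finger gene zfh2 had the most summits of any gene on the arm, 17 in 39065 bp, of which 16 were interior. Next was Sox102F, a SoxD gene, with 13 summits. The zinc finger gene dati had 9 summits in 19966 bp, or 4.29 per 10 kb, close to the 4.24 of zfh2. For ci, the transcription factor of Hedgehog signalling, the gene-end peak had a fold of 2.15 and the highest interior peak one of 3.32, which lies at an end of an antisense RNA gene. In pan, which encodes the TCF factor of Wnt signalling, the corresponding values were 1.96 and 3.36. The peak of 3.36 spans the other annotated end of pan, and its summit lies 883 bp inside the gene. The gene of the TCF coactivator, lgs, was highest at the end (3.35) and reached only 1.51 inside. The Polycomb-group gene pho, whose protein binds Polycomb response elements, had 3 summits with folds up to 3.09, all at the same end of the gene. Mitf, a regulator of lysosomal genes, had 1 summit in 25616 bp, at its end (2.97).

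Of 13 signalling genes, 11 had a gene-end summit (84.6%, near the 78.8% of the arm), with best folds of 2.32 to 3.73. They held 27 summits in all, 13 of them interior, which is 1.06 interior summits per 10 kb against 1.42 over the coding genes of the arm. Among the TGF-beta family ligands, mav stood at 3.73, Actbeta at 2.44 and myo at 2.34, although myo had a peak of 3.23 inside the gene. Eph, which encodes an ephrin receptor, reached 3.35 and its ligand gene Ephrin 3.13. The semaphorin receptor genes PlexB and PlexA reached 2.85 and 2.59. Crk, the gene of an SH2 and SH3 domain adaptor, had its summit exactly at an annotated end (3.30). CaMKII and Zyx had no gene-end summit. A peak of 3.23 lay inside CaMKII.

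Genes of basic cell functions had a gene-end summit in 14 of 16 cases (87.5%, against 78.8% over the arm). Gyf led with 3.92, followed by Hcf at 3.42 and the small GTPase gene Arl4 at 3.37. Tdg, a thymine DNA glycosylase gene, reached 3.32 through a peak of 1879 bp that also spans the end of Pur-alpha. The ubiquitin-binding gene Rad23 had 3.26, and RpS3A, the ribosomal protein gene of the arm, 2.69. No gene-end summit was found at eIF4G1, which had 1 summit at 1.56 inside the gene, or at the calcium pump gene PMCA. The highest interior peak of PMCA reached 3.21, with its summit 643 bp from an annotated end.

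Synaptic and neuronal genes had gene-end summits at 5 of 8 (62.5%), against 78.8% over the arm and 65.6% over all arms. Cadps, for vesicle release, and mGluR, for a glutamate receptor, reached 3.11 and 3.16, but Cadps shares its peak with Dyrk3, and Cals shares its 3.23 peak with sv. Pur-alpha had only the peak shared with Tdg. The vesicle priming gene unc-13 had 11 interior summits and none at its ends, Syt7 had 2 inside and Kif3C had 4. A last list held marker genes of single tissues, 3 in number, all with a gene-end summit. They were apolpp at 3.52, yellow-h at 2.73 and bt, which encodes the giant muscle protein projectin, at 2.23 with 10 further summits inside. The only peak of yellow-h is shared with an end of CG31999. The 25 coding genes in no list had a gene-end summit in 17 cases (68.0%). None of these shares was tested against the rest of the arm.

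Only 5 coding genes had no summit inside or within 500 bp, namely CG11155, CG32006, dpr7, Mpv17 and RhoGAP102A. Of these, dpr7 encodes a defective proboscis extension response family protein, a cell surface protein of neurons. It lies, with RhoGAP102A, in a stretch of 25640 bp without a summit, between CG1674 and NfI.

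Accessibility varied along the arm. In bins of 100 kb the count of summits went from 14 in the first bin to 30 in each of the fifth and sixth, and was 9 in the last bin that holds a gene. The seventh bin had the most coding genes, 10, with 21 summits, of which 11 were at gene ends. Background above the floor was found at 68 peaks, and 17 of those lay in the sixth bin and 14 in the ninth. The sixth holds all of zfh2 and the ninth all of Sox102F. Within 2 kb of zfh2, 15 of 19 peaks had a background above the floor, up to 107 reads. Around Sox102F this was so for 11 of 16, up to 100.2 reads. The highest pileup of the arm, 245 reads, was inside zfh2 (chr4:506815-508806), in the widest peak of the arm at 1992 bp. Its fold enrichment was 2.54, with a background of 95.9 reads.

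**Figure D3:**
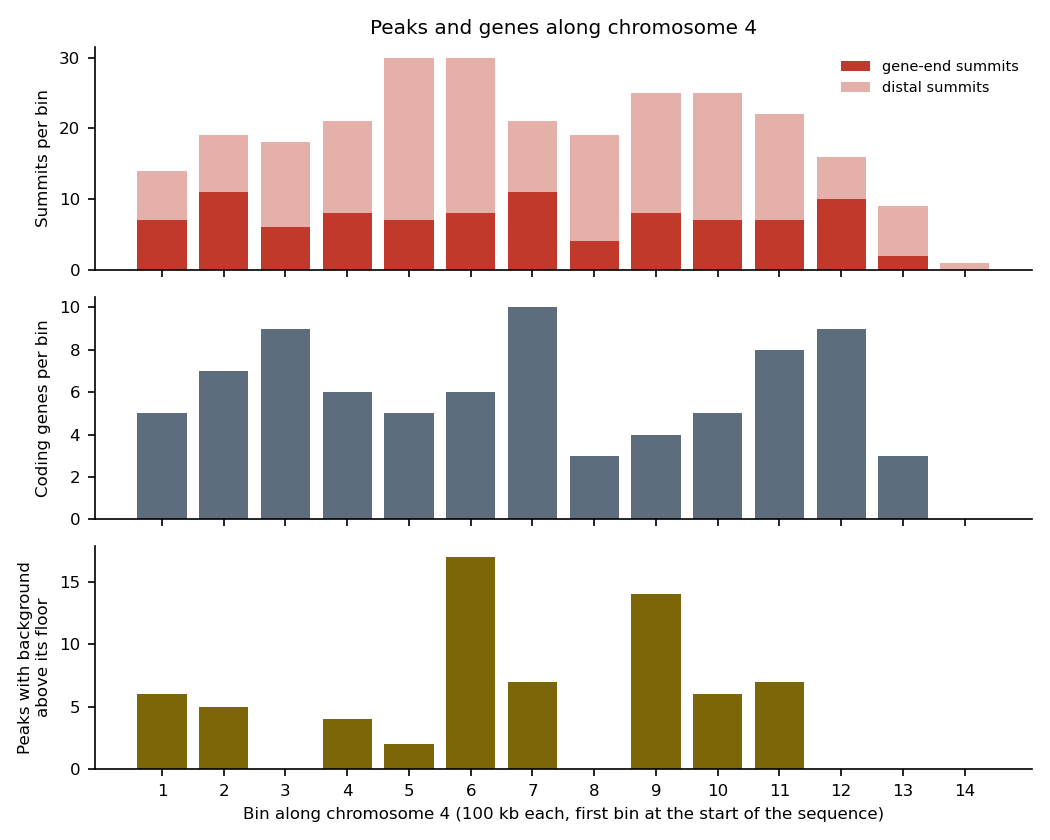
Summits divided into gene-end and distal ones, coding genes (by midpoint) and peaks with a background above its floor, per consecutive bin of 100 kb along chromosome 4. The fifth and sixth bins hold 30 summits each, and the sixth and ninth hold 17 and 14 of the 68 peaks with a raised background.

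Spacing was wider than on the other arms. The median distance between neighbouring summits was 2535 bp (interquartile range 926 to 6540 bp), compared with 1594 to 1770 bp elsewhere, and 26.4% of the distances were under 1 kb against 31.1 to 34.2%. For distal summits alone the median was 3784 bp on chromosome 4 and 1972.5 bp over the other arms. Peaks with no neighbour within 1 kb numbered 148, or 54.8%, against 44.9% over the other arms (42.9 to 47.1%). The longest run of summits each less than 1 kb from the next had 5 members and lay just past the end of dati.

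The longest distances without a summit were 42466, 31386, 28983, 25831 and 25640 bp. The first of them begins 540 bases into the sequence, next to the gene-end peak of JYalpha, and runs over JYalpha, an ATPase subunit gene, and the pseudogenes CR32011, CR32010 and CR32009 into PlexB. The second covers most of Mitf and all of Dyrk3, the third lies in Rnf11 and PMCA, and the fourth in unc-13. The opposite was seen between dati and lgs, in the longest stretch between coding genes (chr4:395606-436956). It held 18 summits in 41.4 kb, or 4.35 per 10 kb, with folds of 1.57 to 2.77, and 14 of the 36 intergenic peaks of the arm.

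In width, the peaks of the arm had a median of 308 bp, with quartiles at 218 and 516 bp, against 340 to 368 bp on the other arms. The ratio to the other arms together was 0.860. A 95% order-statistic interval of the chromosome 4 median puts it between 0.793 and 1.01. The same kind of interval gave 1.03 to 1.16 for median fold enrichment and 1.24 to 1.94 for median spacing. These intervals cover the spread among peaks of 1 merged list, not among replicates, and test no difference between arms. Distal peaks had a median of 295.5 bp against 335 to 361 bp, whereas gene-end peaks, at 378.5 bp, were inside the range of 362.5 to 399.5 bp. Among peaks with the background at its floor the median width was 291.5 bp on chromosome 4 and 292 to 305.5 bp elsewhere. The ratio to the other arms together was 0.978 in that set, in place of 0.860 for all peaks. Floor peaks of the other arms also had a lower median pileup, 117 reads against 149 for all their peaks. The parts of background and height in the width were not tested. At 1 kb or wider there were 10 peaks on the arm (3.70%, against 4.76 to 7.17%). After the zfh2 peak, the widest were those at Tdg and Pur-alpha (1879 bp) and at gw, a gene of microRNA silencing (1635 bp). The distal intergenic peak beyond Cadps (1532 bp) and that at mav and mir-954 (1421 bp) followed.

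**Figure D4:**
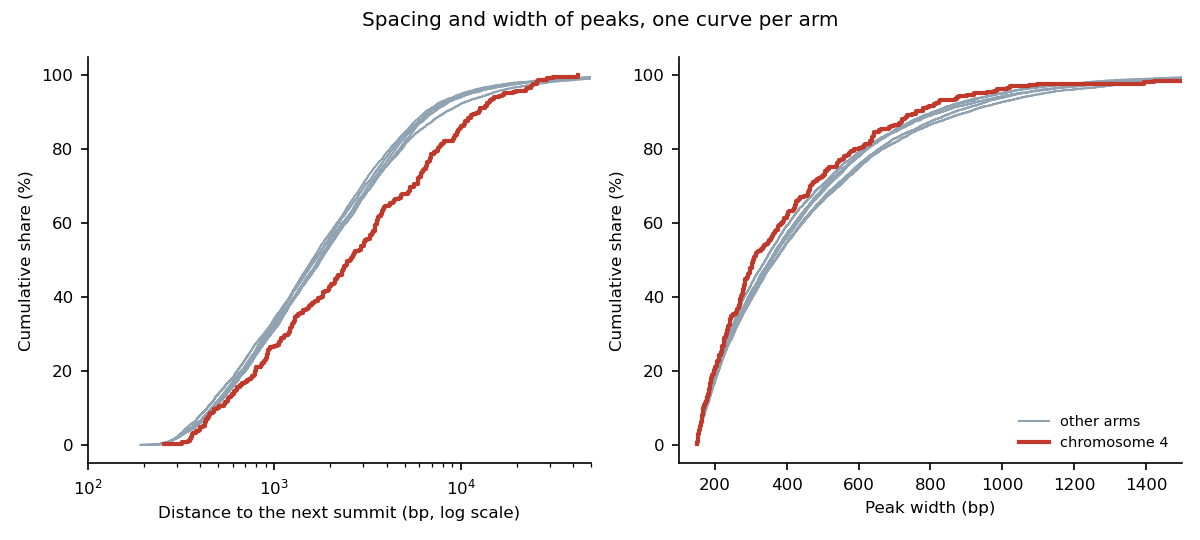
Cumulative share of distances to the next summit (log axis) and of peak widths, with 1 curve per arm. The spacing curve of chromosome 4 (red) lies to the right of the others, with a median of 2535 bp, and its width curve lies slightly to the left, with a median of 308 bp.

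Stretches of the same length on the other arms show how far such values vary. The other arms were divided into 102 consecutive windows of 1270881 bp, the annotated span of chromosome 4. Chromosome 4 had 265 summits within that span, and 16 windows had fewer. A higher gene-end share than the 35.5% of chromosome 4 was found in 19 windows, a longer median spacing in 10 and a lower median pileup in 9. Its share of floor backgrounds, 74.3%, was exceeded in 11 windows. The share of peaks with a fold of 3 or more, 16.2%, was exceeded in 3, which held 57, 32 and 11 summits. The 11 windows with a larger share of floor backgrounds lay at the start of 2R and 3R and at the end of 3L. They had 0 to 25 coding genes and 1 to 63 summits each. Every window with longer spacing, lower pileup or a larger share of peaks of fold 3 or more was among these 11. These values were thus also reached in these windows at the ends of other arms, which were poor in both genes and summits. Whether their position on the arm or their gene number goes with the values was not tested. Windows with a number of coding genes within 1.5 times that of chromosome 4 numbered 15, and they included none of those 11. Of the 15, 2 had fewer summits, while none had as low a median pileup (139 to 153 reads, against 134) or as many floor backgrounds (16.4 to 48.5%). None of the 15 had as high a gene-end share (19.3 to 32.7%, against 35.5%) or as long a median spacing (1364.5 to 2364 bp, against 2452 bp). Their coding genes were shorter, with medians of 1586 to 3041 bp, and the part of gene length in these differences was not tested.

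**Figure D5:**
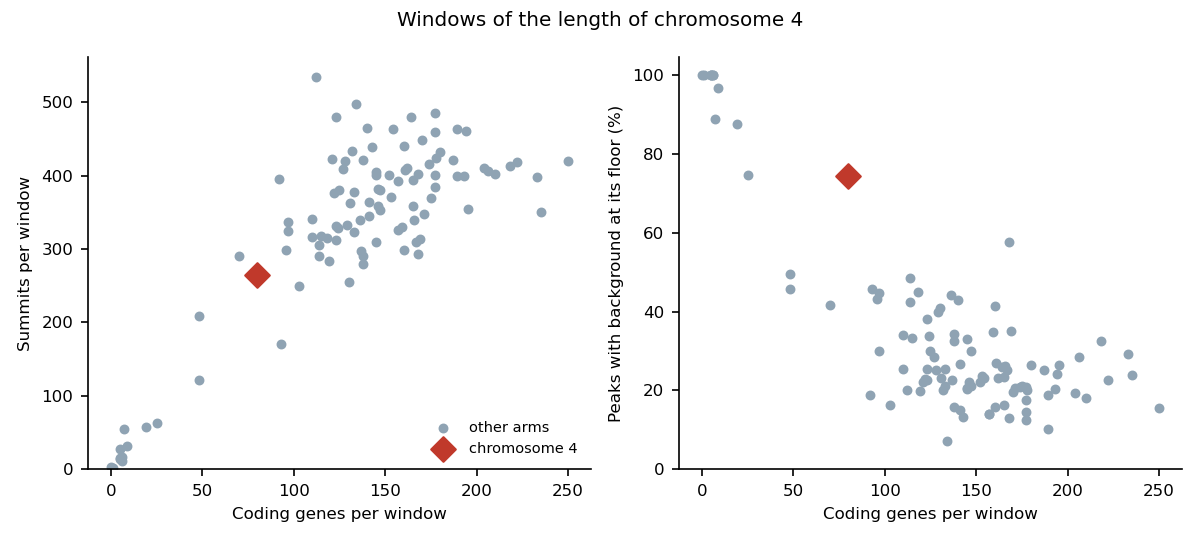
Summits (left) and share of peaks with the background at its floor (right) against the number of coding genes, for 102 windows of the length of chromosome 4 on the other arms (grey) and for chromosome 4 (red diamond). Chromosome 4 lies among windows of like gene number for summits, and at 74.3% above the 15 windows of like gene number for floor backgrounds.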

How the data were processed

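The tools named, per the submitters' processing notes, are MACS2, BWA, Picard and SAMtools, with the genome build dm6. Their settings, and how the 3 replicates were merged, are not stated in the labels; the depth of each replicate is unknown. The deposited list gives each peak a fold enrichment (a linear ratio), −log10 p and −log10 q values, and a display score, which was not used. Pileup and background at each summit were recovered from the deposited fold and −log10 p (Poisson tail, background and pileup each plus 1 in the fold). A whole pileup was found for 34718 of 34718 peaks within 0.002 on the −log10 p scale, and the step was tested on simulated data. A background within 0.05 reads of the lowest value counts as the floor.

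Gene positions came from a RefSeq table of the same Release 6 assembly. It has no strand, exons or UTRs, and no genome sequence was used, so the planned promoter sequences and motifs are not shown. Arm spans run from the first to the last annotated gene, and 5 peaks of chromosome 4 lie outside it. Of 60 listed gene names, 57 were found on chromosome 4, some as synonyms, giving 55 genes in 5 lists. Named genes were the list members, the 10 highest, 5 lowest and 5 widest peaks, the genes with most summits, those beside the 5 longest distances and those without a summit. Members and lists were chosen with earlier results of these data known. Python 3.11.15, numpy 2.4.6, scipy 1.17.1 and pandas 2.3.3 were used.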

Additional observations from a re-analysis of the deposited data

How the results depend on the processing

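The comparisons were repeated with the 17359 peaks of highest −log10 q, with a −log10 q of at least 5, with gene ends of 250 and 1000 bp and with the other settings planned. The direction turned in 2 cases. The ratio of chromosome 4 to the other arms was 0.810 for peaks per Mb (0.796 without the peaks beyond the annotated span) and 1.36 for peaks per coding gene, and it was 1.10 for median fold enrichment and 0.896 for median pileup. The difference in the share of coding genes with a gene-end summit was 13.3 points. It was 1.11 points with the other arms weighted to the gene lengths of chromosome 4. In single length classes chromosome 4 was higher in some and lower in others, and the part of gene length was not tested. The ratio of gene-end to distal median fold on chromosome 4 was 1.26 with all peaks and 1.14 among the peaks of highest −log10 q, a set selected on a value tied to fold. The gene length weighting, the settings for the gene-end to distal ratio and the restrictions to peaks at the background floor or within the span were chosen after seeing the data. The other 39 alternatives kept the direction of the value reported, with ratios of 0.821 to 0.986 for median width and 1.31 to 1.92 for median spacing. No replicate could be left out of a merged list. No paired analysis was possible because there is 1 group and 1 merged list.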

Other observations

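A gene-end summit was found at 11 of 14 long non-coding RNA genes of chromosome 4, against 46.8% of those on the other arms, and at 7 of 10 antisense RNA genes, against 59.8%. No difference between kinds or arms was tested, and several of these overlap or adjoin coding genes whose peaks they share. Both microRNA genes had one, mir-954 at 3.73 in the peak shared with mav and mir-9385 at 1.57. Of 7 pseudogenes only CR43361, which lies inside unc-13, had a gene-end summit (2.93), against 26.9% on the other arms, and the small nucleolar RNA gene inside RpS3A had none. Among the 96 gene-end peaks, 16 lay at an end of non-coding genes only, 72 at that of 1 coding gene and 8 at ends of several coding genes.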
